A study of Homo sapiens with 4 samples.

Results

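The Krüppel-like factors analysed here are 8 genes, KLF2, KLF3, KLF4, KLF6, KLF10, KLF11, KLF13 and KLF16, taken by gene name from tables of 25680 genes. All 8 were found in the tables and all 8 passed the filter on low counts. RNA-seq was done on THP-1, an established human monocytic leukaemia line that models acute myeloid leukaemia (AML). The shPIWIL4 group (n = 2 libraries) received the lentiviral construct PGP-shPIWIL4, a short hairpin RNA against PIWIL4, and the Scrambled group (n = 2 libraries) received PGP-Scrambled, with a scrambled hairpin. Transduced cells of both groups were sorted 48 hours after transduction, so both carry a lentiviral vector. The comparison asks how transcript levels differ in AML cells when PIWIL4, a PIWI-family Argonaute protein, is knocked down. Each group has 1 construct, and its libraries are numbered as experimental replicates without a statement that they came from separate cultures, so p-values measure only the spread between these samples.

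Krüppel-like factors are transcription factors that bind GC-rich and CACCC sequences through a C-terminal set of zinc fingers. Their N-terminal parts differ and recruit different partners. KLF3, KLF8 and KLF12 bind the CtBP corepressors. KLF9, KLF10, KLF11, KLF13, KLF14 and KLF16 recruit the SIN3 corepressor complex. KLF2, KLF4 and KLF6 can act as activators. In the monocyte lineage KLF4 is known for promoting monocyte differentiation and KLF2 for restraining inflammatory activation.

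PIWIL4 itself was lower in the knockdown. It had 11.69 and 11.02 TPM (the length-corrected relative transcript level that the authors deposited) in shPIWIL4 libraries 1 and 2, from 902 and 904 counts, against 23.7 and 23.6 TPM in Scrambled libraries 1 and 2, from 1223 and 1963 counts. Its log2 fold change was -1.10 (SE 0.09, edgeR adjusted p = 1.3e-05). Total counts per library lay between 31458079 and 53657246. All 12 monocytic markers had counts, with a summed level of 3794 and 3602 TPM in shPIWIL4 libraries and 1205 and 1283 TPM in Scrambled libraries. LYZ, the lysozyme gene, held most of that gap, with 2499 and 2431 TPM in shPIWIL4 libraries and 187 and 203 TPM in Scrambled libraries. The list itself went both ways, with LYZ, CD68 and FCGR1A called higher, MPO, CSF1R and CSF3R called lower and a median log2 fold change of 0.00. Of 16 markers of other cell types, CD3E and COL1A2 were at 0 and 11 stayed under 1 TPM in all 4 libraries. Their sum was 48.1 and 52.0 TPM in shPIWIL4 libraries and 46.4 and 43.3 TPM in Scrambled libraries, of which PECAM1, which monocytes also express, had 44.5 and 48.1 TPM in shPIWIL4 libraries and 35.6 and 32.8 TPM in Scrambled libraries. The part of these markers in the results was not tested.

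The family moved both ways. KLF4, KLF3 and KLF13 were called higher in shPIWIL4, KLF2, KLF10, KLF6 and KLF16 were called lower, and KLF11 was not called. That is 7 of 8 members at an adjusted p under 0.05 in edgeR's quasi-likelihood test, where 57.7% of all 16108 genes tested were called, 28.7% higher and 29.1% lower. The median log2 fold change of the members was -0.29, against -0.003 over all genes tested. The CPM values (counts relative to the TMM-scaled library size) of the groups did not overlap for 8 of 8 members and for 78.6% of all genes tested, and both member counts were read against these shares. The call counts depend on scaling. Upper-quartile factors moved the median of all genes by -0.12 and the share of calls that were higher to 37.6%, against 49.7% with TMM, and left 1 member called higher (KLF4) and 5 lower. Calls for KLF2, KLF4, KLF6 and KLF10 held under each alternative that could be fitted, and those for KLF3, KLF13 and KLF16 did not. In bulk RNA, fewer cells with a transcript and less of it per cell cannot be told apart.

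**Figure D1:**
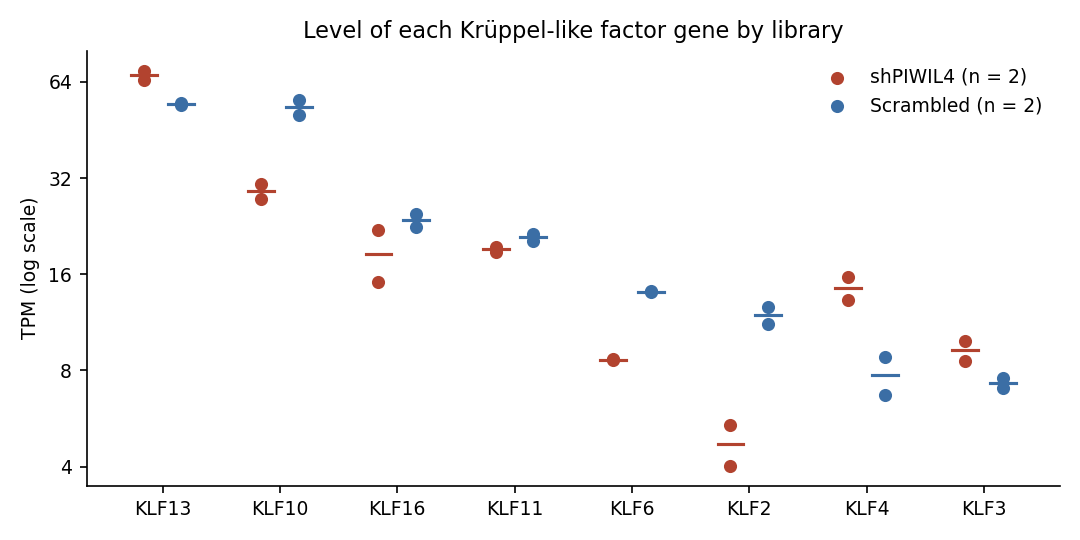
TPM of each member (log axis) in every library, with shPIWIL4 in red left of Scrambled in blue; points are single libraries and bars their means (n = 2 each). KLF4 sits at 13.3 and 15.7 TPM in shPIWIL4 libraries, above 6.69 and 8.82 TPM in Scrambled libraries, while KLF2 sits at 4.02 and 5.41 TPM in shPIWIL4 libraries, below 11.2 and 12.6 TPM in Scrambled libraries.

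The promoters of KLF2, KLF4 and KLF6 are shown because these genes of the activator type went different ways. KLF2 and KLF4 are textbook targets of one kinase route, in which ERK5 activates MEF2 factors. Sequences are from RefSeq on GRCh38.p14 and run from 250 bases before to 50 bases after the annotated start. The counts were made on hg19. Capitals mark GC boxes (GGGCGG or, on the other strand, CCGCCC) and, in KLF2 alone of the 3, a match to the MEF2 motif.
KLF2, chr19:16324576-16324875, plus strand: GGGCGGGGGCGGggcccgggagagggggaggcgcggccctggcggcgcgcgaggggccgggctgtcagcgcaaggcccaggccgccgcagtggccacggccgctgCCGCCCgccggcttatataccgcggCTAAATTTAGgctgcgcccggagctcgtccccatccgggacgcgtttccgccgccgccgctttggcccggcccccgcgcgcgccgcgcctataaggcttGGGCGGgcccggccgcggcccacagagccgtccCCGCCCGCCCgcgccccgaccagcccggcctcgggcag
KLF4, chr9:107489720-107490019, minus strand: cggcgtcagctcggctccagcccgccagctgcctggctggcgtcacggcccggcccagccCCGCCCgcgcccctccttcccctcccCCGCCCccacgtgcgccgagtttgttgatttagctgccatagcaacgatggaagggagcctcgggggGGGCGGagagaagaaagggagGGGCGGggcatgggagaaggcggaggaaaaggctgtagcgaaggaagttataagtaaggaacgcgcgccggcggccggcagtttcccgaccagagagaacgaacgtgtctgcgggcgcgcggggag
KLF6, chr10:3785160-3785459, minus strand: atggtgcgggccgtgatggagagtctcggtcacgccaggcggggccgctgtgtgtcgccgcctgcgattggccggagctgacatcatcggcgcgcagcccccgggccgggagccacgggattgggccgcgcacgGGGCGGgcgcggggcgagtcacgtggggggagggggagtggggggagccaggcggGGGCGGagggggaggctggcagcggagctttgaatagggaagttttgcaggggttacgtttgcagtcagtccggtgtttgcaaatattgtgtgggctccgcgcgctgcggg

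The GC box, the sequence that SP and Krüppel-like factors themselves bind, occurs 6 times in the KLF2 window, 4 times in KLF4 and 2 times in KLF6, and 45% of the 35116 promoter windows searched hold at least 1. The MEF2 match of KLF2 lies 120 bases before the start, and 2.99% of windows hold such a match on either strand. No window of the 6 members read (KLF2, KLF4, KLF6, KLF11, KLF13 and KLF16) holds TATAAA, which 11.5% of windows hold, a CArG box (1.29% of windows) or an AP-1 site TGANTCA (7.71%). The cAMP response element TGACGTCA occurs 1 time, in 1 of the 2 windows of KLF11, and in 1.85% of all windows. The CACCC box CCACCC occurs 1 time, in KLF13, and in 34.3% of windows. That match shares bases with a GC box, and neighbouring GC boxes share bases in KLF2 and KLF16. GC content was 80.7% in the KLF2 window, 69.0% in KLF4 and 70.7% in KLF6, against a median of 58.7% over all windows. These matches describe the letters in these windows and were not tested for binding.

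KLF4 was the member with the largest rise. It had 15.7 and 13.3 TPM in shPIWIL4 libraries 1 and 2, from 1112 and 1002 counts, against 6.69 and 8.82 TPM in Scrambled libraries 1 and 2, from 316 and 672 counts. Both shPIWIL4 libraries were above both Scrambled libraries. The level averaged 14.5 ± 1.7 TPM in shPIWIL4 and 7.75 ± 1.5 TPM in Scrambled (SD, n = 2 each). KLF4 rose by 0.85 (log2 scale, SE 0.13), a level 1.80-fold that of Scrambled, with an edgeR adjusted p of 5.4e-04. Of all genes tested, 21.6% had an absolute log2 fold change at least as large.

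KLF2 was the member with the largest change, a fall. It had 5.41 and 4.02 TPM in shPIWIL4 libraries 1 and 2, from 215 and 170 counts, against 11.2 and 12.6 TPM in Scrambled libraries 1 and 2, from 298 and 542 counts. The groups were well separated, and the means were 4.72 ± 0.98 TPM in shPIWIL4 and 11.9 ± 1.0 TPM in Scrambled (SD, n = 2 each). KLF2 fell by 1.39 on the log2 scale (SE 0.15), 2.62-fold lower, with an edgeR adjusted p of 5.4e-05, and 9.06% of all genes tested changed at least as much in either direction. KLF2 thus went against KLF4 in the same libraries. The KLF4 to KLF2 ratio in TPM was 2.91 and 3.31 in shPIWIL4 libraries 1 and 2 and 0.596 and 0.697 in Scrambled libraries 1 and 2. On the log2 scale of normalised counts the ratio differed by 2.27 between the groups. An exact two-sided permutation test over the 4 libraries gave p = 0.333, the smallest value that 2 libraries against 2 can give. The pair joins the members with the largest rise and the largest fall, so full separation of the ratio was fixed beforehand. The test therefore decides nothing.

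KLF6, a broadly expressed factor known as an early response gene, had 8.60 and 8.69 TPM in shPIWIL4 libraries 1 and 2, from 967 and 1039 counts, against 14.1 TPM in each Scrambled library, from 1058 and 1713 counts. The libraries of each group were nearly alike and the groups did not overlap. It fell by 0.75 on the log2 scale (SE 0.09), 1.68-fold lower, with an edgeR adjusted p of 1.3e-04.

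Among the SIN3-recruiting genes, KLF10 fell while its closest relative KLF11 was not called. Both are known as TGF-beta inducible early genes. KLF10 had 30.7 and 27.5 TPM in shPIWIL4 libraries 1 and 2, from 2663 and 2532 counts, against 50.4 and 56.4 TPM in Scrambled libraries 1 and 2, from 2920 and 5268 counts. Both shPIWIL4 libraries were well below both Scrambled libraries. KLF10 fell by 0.92 on the log2 scale (SE 0.09), 1.89-fold lower, with an edgeR adjusted p of 2.7e-05.

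KLF11 had 19.55 and 18.7 TPM in shPIWIL4 libraries 1 and 2, from 2025 and 2064 counts, against 20.4 and 21.4 TPM in Scrambled libraries 1 and 2, from 1412 and 2390 counts. The values did not overlap, yet the gap was small. Its log2 fold change was -0.17 (SE 0.08, edgeR adjusted p = 0.11), and it was called lower with library totals (adjusted p = 0.041), upper-quartile factors (0.013), the stricter filter (0.018) and the GC correction (0.021).

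KLF13, known as an activator of the chemokine gene CCL5 in T lymphocytes, was the most abundant member in shPIWIL4 libraries. It had 69.5 and 64.9 TPM in shPIWIL4 libraries 1 and 2, from 11399 and 11304 counts, against 54.2 and 55.1 TPM in Scrambled libraries 1 and 2, from 5942 and 9745 counts. Both shPIWIL4 values were higher, by a small amount. It rose by 0.25 on the log2 scale (SE 0.08), 1.19-fold, with an edgeR adjusted p of 0.021. Among the other scalings, filters and left-out libraries, the call was lost with upper-quartile factors (0.13, adjusted p = 0.18), with the stricter filter (0.15, adjusted p = 0.11) and without either Scrambled library (adjusted p of 0.11 without library 1 and 0.17 without library 2).

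KLF16, a repressor of the same SIN3 type, had 21.95 and 15.16 TPM in shPIWIL4 libraries 1 and 2, from 1528 and 1122 counts, against 22.55 and 24.76 TPM in Scrambled libraries 1 and 2, from 1049 and 1858 counts. Library 2 was low and library 1 lay close to the Scrambled values. It fell by 0.40 on the log2 scale (SE 0.14), with an edgeR adjusted p of 0.037, and without shPIWIL4 library 2 the log2 fold change was -0.17 (adjusted p = 0.13). Without shPIWIL4 library 1 it was -0.65. The call was also lost with library totals (adjusted p = 0.068), without a count filter (0.15) and without Scrambled library 2 (0.08). The KLF16 transcript is GC-rich at 67.8%, and of 3 equal groups of genes by GC content, the high group had a median log2 difference of -0.17 for shPIWIL4 library 2 minus library 1, and the low group 0.10. With a correction for GC content the log2 fold change was -0.23 (adjusted p = 0.018), and that of KLF2, whose transcript has 65.2% GC, was -1.24. The part of GC content in the fall of KLF16 was otherwise not tested.

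KLF3, the CtBP-binding repressor among the members, had 9.93 and 8.57 TPM in shPIWIL4 libraries 1 and 2, from 1344 and 1233 counts, against 7.04 and 7.59 TPM in Scrambled libraries 1 and 2, from 637 and 1107 counts. All shPIWIL4 values were above all Scrambled values. It rose by 0.29 on the log2 scale (SE 0.10), 1.22-fold, with an edgeR adjusted p of 0.033. Among the other scalings, filters and left-out libraries, the call was lost with library totals, upper-quartile factors, the stricter filter, and without shPIWIL4 library 1 or either Scrambled library, where the adjusted p lay between 0.072 and 0.18. The antisense gene KLF3-AS1 overlaps KLF3 exons in GENCODE 29 and had 25 and 13 counts in shPIWIL4 libraries and 9 and 31 counts in Scrambled libraries. Its reads cannot be told apart from those of KLF3 without a stated strand setting. Exons of KLF11 and of KLF16 also overlap an opposite-strand gene each in GENCODE 29, and the same limit holds for them.

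**Figure D2:**
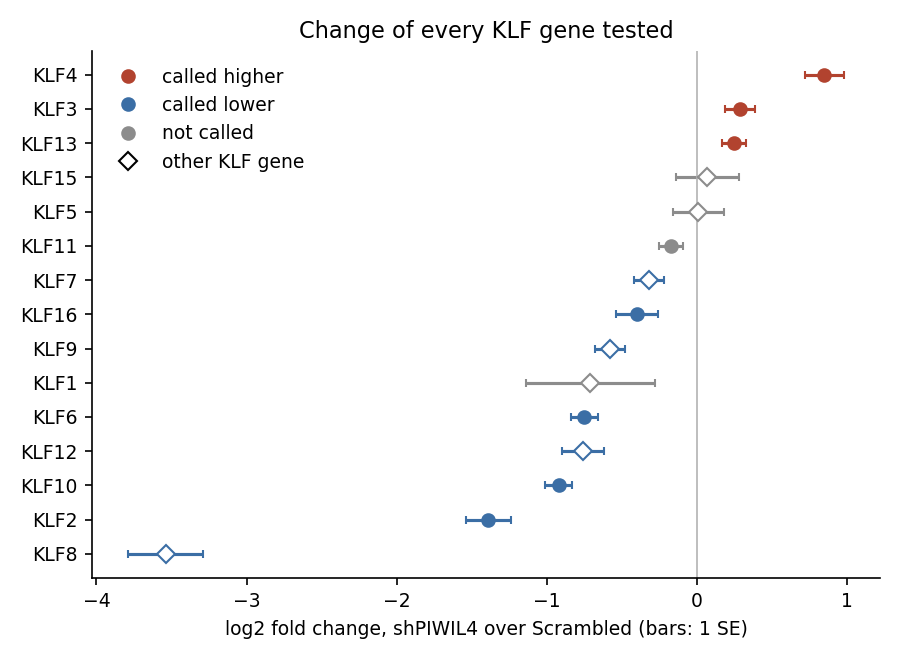
Log2 fold change of every KLF gene tested, shPIWIL4 over Scrambled, with bars of 1 SE; filled circles are the 8 members, open diamonds the other KLF genes, and colour gives the edgeR call. KLF4 is highest at 0.85, and KLF8 is lowest at -3.54.

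The order of the members by level changed between groups. In shPIWIL4 libraries the order by mean TPM was KLF13, KLF10, KLF11, KLF16, KLF4, KLF3, KLF6 and KLF2. The ranges of KLF11 and KLF16, of KLF16 and KLF4 and of KLF3 and KLF6 overlapped there, and the other neighbours were separate. In Scrambled libraries the order was KLF13, KLF10, KLF16, KLF11, KLF6, KLF2, KLF4 and KLF3, where KLF13 overlapped KLF10 and KLF4 overlapped KLF3. KLF2 was thus 6th of 8 in Scrambled libraries and last in shPIWIL4 libraries. KLF13 lay above 85.4% of tested genes by mean TPM in shPIWIL4 libraries and above 84.3% in Scrambled libraries, while KLF2 lay above 32.7% in shPIWIL4 libraries and 48.8% in Scrambled libraries.

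Summed over the 17 KLF genes in the tables, the level was 198 and 177 TPM in shPIWIL4 libraries 1 and 2 and 208 and 223 TPM in Scrambled libraries 1 and 2. The 8 members held between 89.6% and 91.5% of that sum in each library. KLF13 made up 35.1% and 36.6% of it in shPIWIL4 libraries and 26.0% and 24.7% in Scrambled libraries. KLF10 made up 15.5% in each shPIWIL4 library, and 24.2% and 25.3% in Scrambled libraries. The share of KLF4 was 7.93% and 7.51% in shPIWIL4 libraries and 3.21% and 3.96% in Scrambled libraries.

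**Figure D3:**
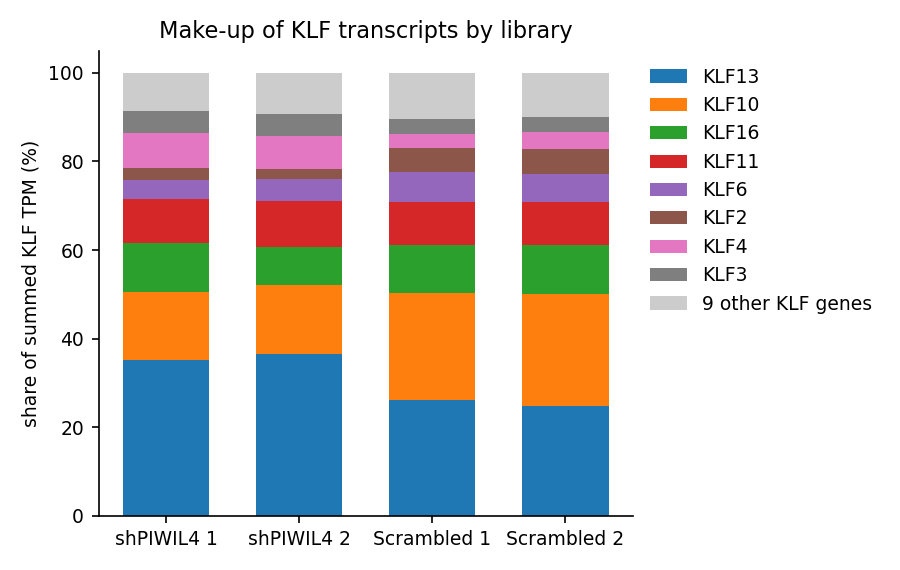
Share of the summed TPM of 17 KLF genes held by each member and by the 9 other KLF genes together (grey), in percent, with 1 stacked bar per library. KLF13 takes 35.1% and 36.6% in shPIWIL4 libraries against 26.0% and 24.7% in Scrambled libraries, and KLF10 takes 15.5% in each shPIWIL4 library against 24.2% and 25.3% in Scrambled libraries.

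Of the other KLF genes, 9 were in the tables and 7 were tested, of which 0 were called higher and 4 lower by edgeR, and their log2 fold changes had a median of -0.58. The share called was 57.1%, near the 57.7% of all genes tested. KLF18 is not analysed here. KLF8, a CtBP-binding factor, had 10 and 18 counts (0.0765 and 0.130 TPM) in shPIWIL4 libraries 1 and 2, against 105 and 164 counts (1.202 and 1.164 TPM) in Scrambled libraries 1 and 2. It fell by 3.54 on the log2 scale (SE 0.25, edgeR adjusted p = 5.1e-06), at a low level in both groups. KLF12, also CtBP-binding, fell by 0.76 (SE 0.14), so that of the CtBP-binding genes KLF3 was called higher and KLF8 and KLF12 lower. KLF9 and KLF7 fell by 0.58 and 0.32, with KLF7 not called without Scrambled library 1 (adjusted p = 0.19). The log2 fold changes of KLF1, the erythroid factor, KLF15 and KLF5 were -0.71, 0.07 and 0.01, with an adjusted p of at least 0.18. KLF1 had few counts, 10 and 7 in shPIWIL4 libraries 1 and 2 and 10 and 13 in Scrambled libraries 1 and 2 (SE 0.43). The signs of KLF5 and KLF15 turned under some alternatives. KLF14 had at most 3 counts in any library. KLF17 had 0 counts in all 4 libraries, which allows up to 0.0592 and 0.0577 CPM in shPIWIL4 libraries and 0.0944 and 0.0568 CPM in Scrambled libraries for counting error alone.

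The SP genes, the sister family that shares the GC box, were called in 6 of 6 tested members, 5 lower and 1 higher, and the median of their log2 fold changes was -0.63, where 57.7% of all genes tested were called, 28.7% higher and 29.1% lower. SP1, an abundant ubiquitous factor, had 54.65 and 61.5 TPM in shPIWIL4 libraries and 70.5 and 69.2 TPM in Scrambled libraries. Its log2 fold change was -0.31 (edgeR adjusted p = 0.020). That value was -0.19 without shPIWIL4 library 1 and -0.25 without Scrambled library 1, and SP1 was called in neither fit. SP3 fell by 0.67, SP4 fell by 0.60 and SP9 fell by 1.07, and SP5, at under 1 TPM in every library, fell by 2.40. SP2 rose by 0.32 (adjusted p = 0.029), a call lost with library totals, upper-quartile factors, the stricter filter, and without shPIWIL4 library 1 or either Scrambled library, where the adjusted p lay between 0.065 and 0.15. SP9 was not called with library totals (adjusted p = 0.061) or without a count filter (0.18), and SP4, at -0.36, was not called without Scrambled library 2 (0.14). The log2 fold change of SP9 was -1.89 without shPIWIL4 library 1 and -0.55 without shPIWIL4 library 2, and that of SP5 was -3.37 and -1.80 without the same libraries.

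Lists of genes that act on or below Krüppel-like factors were read from the same fit. In the TGF-beta and SMAD list, whose signal induces KLF10 and KLF11, 4 of 18 genes were called higher and 4 lower, and the median change was 0.06 on the log2 scale. The share called was 44.4%, against 57.7% of all genes tested. The receptor gene TGFBR2 had 36.42 and 38.04 TPM in shPIWIL4 libraries against 17.0 and 17.5 TPM in Scrambled libraries, a rise of 1.07 (SE 0.08, adjusted p = 9.7e-06). The ligand gene TGFB2 rose by 2.24 at a low level, with 1.15 TPM in each shPIWIL4 library and 0.229 and 0.239 TPM in Scrambled libraries. The signal transducer gene SMAD3 had 30.9 and 31.3 TPM in shPIWIL4 libraries and 54.7 and 54.8 TPM in Scrambled libraries and fell by 0.86, and TGIF1, which encodes a repressor of SMAD activity, fell by 0.89. The count of higher genes was 2 with upper-quartile factors, 1 with the stricter filter, 2 without Scrambled library 1 and 7 with the GC correction.

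The ERK5, MEF2 and CCM list holds the kinase route that induces KLF2 and KLF4, the class IIa deacetylases that repress MEF2, and the CCM complex that restrains the route. Of its 14 genes, 4 were called higher and 4 lower, with a median of 0.02, and the share called was 57.1%, near the 57.7% of all genes. MEF2D, the most abundant of MEF2A, MEF2C and MEF2D, had 189 and 173 TPM in shPIWIL4 libraries and 241 and 256 TPM in Scrambled libraries and fell by 0.50 (SE 0.09, adjusted p = 9.8e-04). MEF2C fell by 0.54. The deacetylase genes HDAC9 and HDAC4 went opposite ways, with HDAC9 at 4.77 and 4.42 TPM in shPIWIL4 libraries against 2.22 and 2.61 TPM in Scrambled libraries, a rise of 0.88, and HDAC4 falling by 0.65. With upper-quartile factors or the stricter filter 2 genes were called higher.

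Among 14 corepressors and coactivators of Krüppel-like factors, 3 were called higher and 2 lower, with a median of 0.02, which is 35.7% called where 57.7% of all genes were. CTBP1 and CTBP2, the partners of KLF3, had log2 fold changes of -0.23 and 0.08 (adjusted p of 0.20 and 0.45), and SIN3A, the partner of the KLF10 group, 0.03 (0.79). These 3 genes were picked as the partners named above, after their values were seen. The acetyltransferase gene KAT2B rose by 0.61, SIN3B fell by 0.50, and of the paired histone-binding subunits of SIN3 complexes RBBP7 rose by 0.49 while RBBP4 fell by 0.73. With upper-quartile factors or the stricter filter 4 genes were called lower.

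Among 8 genes for ubiquitin ligases reported to act on KLF proteins, 3 were called higher and 2 lower, with a median of 0.16, and the 62.5% called lies near the 57.7% of all genes. WWP1, whose product targets KLF2 and KLF5, had 17.5 and 19.0 TPM in shPIWIL4 libraries and 9.60 TPM in each Scrambled library, a rise of 0.89 (SE 0.10, adjusted p = 7.3e-05). SMURF1, which is also in the TGF-beta list, rose by 0.27 and SIAH1 and VHL fell by 0.48 and 0.39. The higher count was 1 with upper-quartile factors, with the stricter filter, without shPIWIL4 library 2 and without either Scrambled library, and the lower count was 1 without Scrambled library 2. SMURF1 was not called under those settings, and VHL was not called without Scrambled library 2.

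Reported KLF targets are mostly known from endothelium, T cells or epithelium. Of 25 genes, 16 were tested, 1 was called higher and 8 lower, with a median of -0.28. The share called was 56.2%, near the 57.7% of all genes, of which 28.7% were higher and 29.1% lower. Another 4 genes had counts too low to test, and MAOA, MAOB, SELE, HBG1 and HBG2 were at 0 in all 4 libraries. CCL5, the KLF13 target, had 111 and 110 TPM in shPIWIL4 libraries against 253 and 255 TPM in Scrambled libraries, 2.38-fold lower (edgeR adjusted p = 3e-06), while KLF13 was called higher. F3, which encodes tissue factor and which KLF2 represses in endothelium, had 5.58 and 5.87 TPM in shPIWIL4 libraries against 19.7 and 20.5 TPM in Scrambled libraries and fell by 1.85, in the same direction as KLF2. The cyclin D1 gene CCND1, which KLF4 is known to repress, had 6.07 and 6.06 TPM in shPIWIL4 libraries against 16.75 and 16.89 TPM in Scrambled libraries and fell by 1.52. The gene called higher was CDKN1B, the cell cycle inhibitor gene, which rose by 0.87 and is named because it was the only one, after its value was seen. The higher count was 2 without a count filter, with DESeq2 and without Scrambled library 2, and 3 without shPIWIL4 library 2 and with the GC correction.

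**Figure D4:**
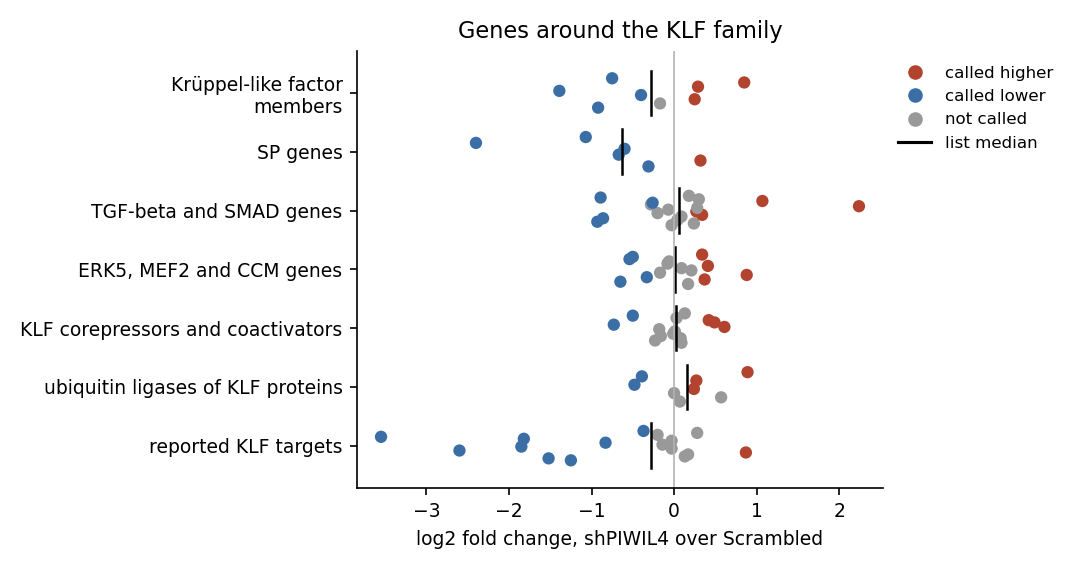
Log2 fold change of each tested gene, shPIWIL4 over Scrambled, in the members and 6 gene lists, with colour for the edgeR call and a black line at the list median. The medians lie at -0.29 for the members, -0.63 for the SP genes and between -0.28 and 0.16 for the other lists.

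The genes whose pattern over the 4 libraries was most like that of each member were found among up to 9246 genes of at least 10 CPM by the root mean square (RMS) difference of centred log2 CPM. With 4 libraries in 2 groups, this likeness includes the shared difference between the groups. KLF2 was closest to SUSD3 (RMS 0.016) and ISYNA1 (0.022), an inositol phosphate synthase gene. KLF4 was closest to PAQR3 and to PMAIP1, an apoptosis gene of the BH3-only kind (0.048 each). KLF6 was closest to SERINC5 (0.009) and TANC2 (0.012), KLF10 to CREBRF (0.012) and PIGZ (0.017), and KLF16 to TMEM86B (0.013) and OPRL1 (0.023). KLF3 was closest to MAD2L2 and ASB6 (RMS 0.009 and 0.010), KLF13 to ARHGAP1 and AP5B1 (0.009 each) and KLF11 to NDFIP1 and CNOT11 (0.004 and 0.005).

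**Figure D5:**
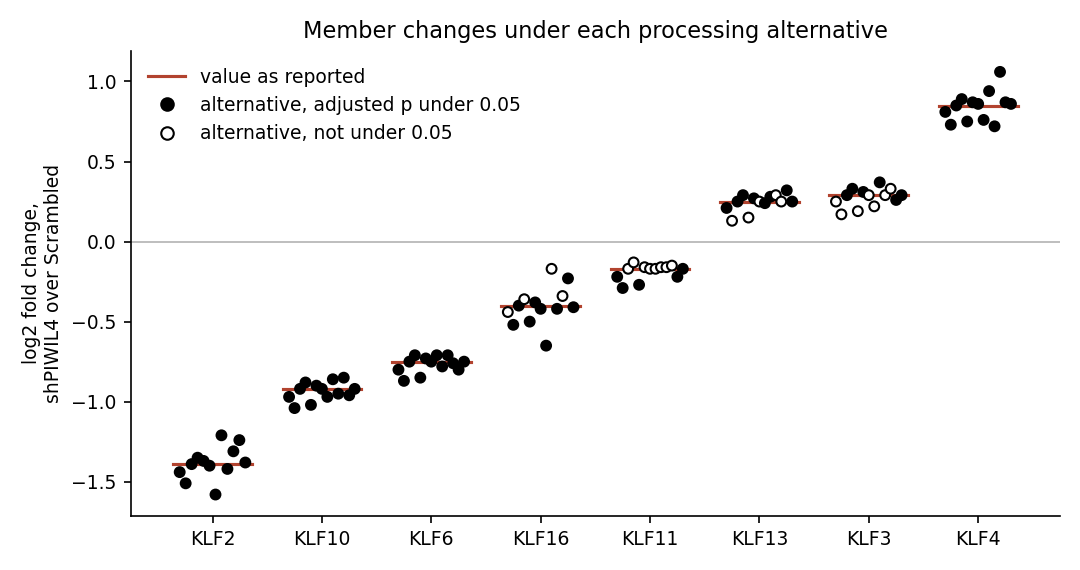
Log2 fold change of each member, shPIWIL4 over Scrambled, as reported (red line) and under each alternative that gave a value (12 for KLF2 and 13 for each other member); black points have an adjusted p under 0.05 and open points do not. KLF2, KLF10, KLF6 and KLF4 are black throughout, from -1.58 to -1.21 for KLF2 and from 0.72 to 1.06 for KLF4, while KLF16, KLF11, KLF13 and KLF3 are mixed.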

How the data were processed

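RNA-seq libraries of THP-1 cells were compared between shPIWIL4 (n = 2) and Scrambled (n = 2), grouped by sample title, since the treatment label of shPIWIL4 also holds the word scrambled. The submitters' processing notes name hg19, STAR, featureCounts and DESeq2. No version, annotation or strand setting was stated in the labels. The deposited tables hold a raw count per gene and the authors' TPM. TPM gave levels and entered no test. The deposited table of normalized values was not used; it has 4 value columns.

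The test was that of edgeR 4.0.16 (R 4.3.3): filterByExpr (minimum count 10, minimum total 15), TMM scaling and the robust quasi-likelihood F test with group as the only term, fitted on all 16108 genes that passed. P-values were adjusted by Benjamini-Hochberg across these genes, and a gene was called under 0.05. The SE is the log2 fold change divided by the square root of F. TMM takes most genes as unchanged, and a direction is relative to that centre. The depth of 31458079 to 53657246 counts sets the counting precision, and 0 counts allow up to 3 counts. Limits on 0 counts cover counting error only, while the SE also takes in the estimated spread between libraries of a group.

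The members and gene lists were chosen with earlier results of these data known. The genes named are the members, PIWIL4, each tested KLF and SP gene, up to 4 called genes with the smallest p in each further list, and the 2 genes nearest each member, without clone-style names. The result of 1 gene that this rule names is not reported here. The alternatives were 3 scalings, 2 filters, DESeq2 1.42.0, a replicate block, leaving out each library, and 2 chosen after the data were seen: a crossed block and a loess offset on transcript GC content (GENCODE 29, longest transcript), known for 92.0% of tested genes. The edgeR script was also run on simulated counts, with few genes changed and the spread taken from the fit. In these data 57.7% of genes tested were called, so that run does not check the scaling here. Replicates differed by more than sampling noise, with a chi-square per gene of 27.9 between shPIWIL4 libraries and 7.89 between Scrambled libraries over genes with at least 20 counts. Promoters were from RefSeq.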

Additional observations from a re-analysis of the deposited data

How the results depend on the processing

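No member changed sign under the 13 alternatives, and of 103 values 82 stayed on the same side of the threshold, 16 lost it and 5 gained it. KLF2 gave no value under the stricter filter (a mean of at least 10 CPM), which its mean did not reach. All genes called higher and lower in shPIWIL4 numbered 4618 and 4683, and 2874 and 2856 under the stricter filter, which tested 9760 genes, and with them fewer KLF and SP genes (2 of each called lower beside the members). The 3 members called higher became 1 with upper-quartile factors and 1 under the stricter filter. Log2 fold changes of all members with a value moved downward under both settings. KLF4 went from 0.85 to 0.73 with upper-quartile factors and 0.75 under the stricter filter. KLF10 went from -0.92 to -1.04 and -1.02 under the same settings. The shift was not particular to the members. Upper-quartile factors moved the median of all genes tested by -0.12. Outside the family, TGFBR2 went from 1.07 to 0.95 with upper-quartile factors and 0.97 under the stricter filter. SMAD3 went from -0.86 to -0.98 and -0.96 under the same settings. The cause of the shift under the stricter filter was not tested. Leaving out single libraries gave 1 to 3 members higher and 3 to 4 lower, and 3560 to 5164 genes higher and 3525 to 5011 lower. With 1 library in a group, that library is assumed to vary like the others.

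The shared replicate numbers do not pair the libraries by the labels. Deviations of same-numbered libraries from their group means had a correlation of -0.74 over 9756 genes. With the replicate number as a block, 1 member was called higher and 4 lower, and 3921 genes higher and 4197 lower. Calls lost under the block were read for KLF genes, SP genes and the genes named from each further list. They were those of KLF3 (adjusted p = 0.11), KLF13 (0.13), KLF7 (0.051), SP1 (0.062), SP2 (0.074) and SMURF1 (0.11). Unnamed genes of the lists also lost calls. The TGF-beta and SMAD list then had 2 genes called higher and 3 lower. The ERK5, MEF2 and CCM list had 4 higher and 3 lower, and 1 ubiquitin ligase gene was called higher. Crossing the numbers gave 3 and 5 members and 5728 and 5641 genes. KLF11 was then also called lower (edgeR adjusted p = 0.021). With the crossed numbers 8 genes of the TGF-beta and SMAD list were called higher. The same fit called 5 corepressors and coactivators lower and 3 reported KLF targets higher.

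KLF5, at 0.01 on the log2 scale, was -0.03 with library totals, -0.11 with upper-quartile factors, -0.04 with the GC offset, and between -0.19 and 0.19 without single libraries. KLF15, at 0.07, was -0.05 with upper-quartile factors and between -0.10 and 0.24 without single libraries. Depth limits KLF1, KLF8, KLF14 and SP5, which had few counts.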
